A study of Mus musculus with 2 samples.

Results

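The genes described here encode ferritin and the enzymes and transporter of the antioxidant defence of the macrophage. They are Ftl1 and Fth1 (the ferritin light and heavy chains), Prdx1 and Prdx5 (peroxiredoxins), Txn1 (thioredoxin), Sod2 (mitochondrial superoxide dismutase), Gpx1 and Gpx4 (glutathione peroxidases), Hmox1 (haem oxygenase) and Slc7a11 (the cystine transporter). The 10 members were chosen by gene symbol from 23924 symbols in the table, and all transcript rows of a symbol were summed. The value is FPKM, the fragments of a transcript per kilobase of its length, scaled to the total fragments of the library.

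RNA was recovered by immunoprecipitation from nuclear extracts of RAW 264.7 cells, a mouse macrophage line, that were depleted of the nuclear exosome nuclease mRrp6. All cells received LPS, a bacterial cell wall component, at 80 ng/ml for 12 h. One library came from a control IgG precipitation and 1 from an antibody against nucleolin, an RNA-binding protein of the nucleolus. Neither untreated nor undepleted cells were among the 2 libraries, so the values compare antibodies and not the effect of LPS or of the depletion. How the depletion was made is not given in the labels. With 1 library per antibody nothing measures the spread between replicates, and no difference below was tested.

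Ferritin is a hollow shell of light and heavy chains that stores iron, and the heavy chain oxidises the iron as it enters. Free ferrous iron turns hydrogen peroxide into reactive radicals, so iron storage and peroxide removal protect the same cell. Superoxide dismutases turn superoxide into hydrogen peroxide, which peroxiredoxins reduce with electrons from thioredoxin and glutathione peroxidases with those of glutathione. Slc7a11 imports the cystine needed to make glutathione, and Hmox1 breaks haem down and releases its iron. The transcription factor NRF2 induces many of these genes, and activated macrophages are known to raise several of them. Gpx1 and Gpx4 are selenoproteins, and nucleolin has been reported to bind the messenger RNAs of some selenoproteins.

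The libraries were very shallow, and this sets how every value below can be read. Among genes with 1 transcript row, 23 of 367 IgG genes with a span between 600 and 8000 bases lay on a common line of FPKM against the annotated span of the gene. That is where intronless genes at 1 read must lie. On that line 1 read was worth 42.2 FPKM divided by the length in kilobases, after 203 bases are taken off the length. By the usual scaling of FPKM this worth corresponds to about 23700 fragments behind the IgG library. Genes in both libraries put the worth of 1 nucleolin read at 0.393 of that of 1 IgG read, or about 60200 fragments. With that worth, 8 of 292 nucleolin genes lay within 0.02 of the line on the log2 scale, as did 23 of the 367 IgG genes. A gene with equal reads in both libraries therefore appeared 2.54 times higher in IgG FPKM. The IgG library also held transcripts foreign to macrophages. Among 13 gastric and epithelial markers, 12 had values with IgG, summing to 18019 FPKM, and all 13 were at 0 with the nucleolin antibody. Of 11 macrophage markers, 7 were listed, summing to 647 FPKM with IgG and 532 FPKM with the nucleolin antibody. Adgre1, Ptprc, Fcgr3 and Marco did not reach 1 FPKM in either. Of the 7, Lyz2, Csf1r and Itgam were in the nucleolin library only (37.1% of all genes compared) and 4 in both (16.8%). None of the 6 lymphocyte markers, nor of the 4 of 6 erythroid markers that the table used here holds, reached 1 FPKM in either library. Of the hepatocyte list 1 of 5 markers and of the fibroblast list 2 of 4 did, all in the IgG library only. In bulk RNA, fewer cells of a type and less RNA per cell cannot be told apart. The part of these foreign transcripts in the results on single genes was not tested.

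**Figure D1:**
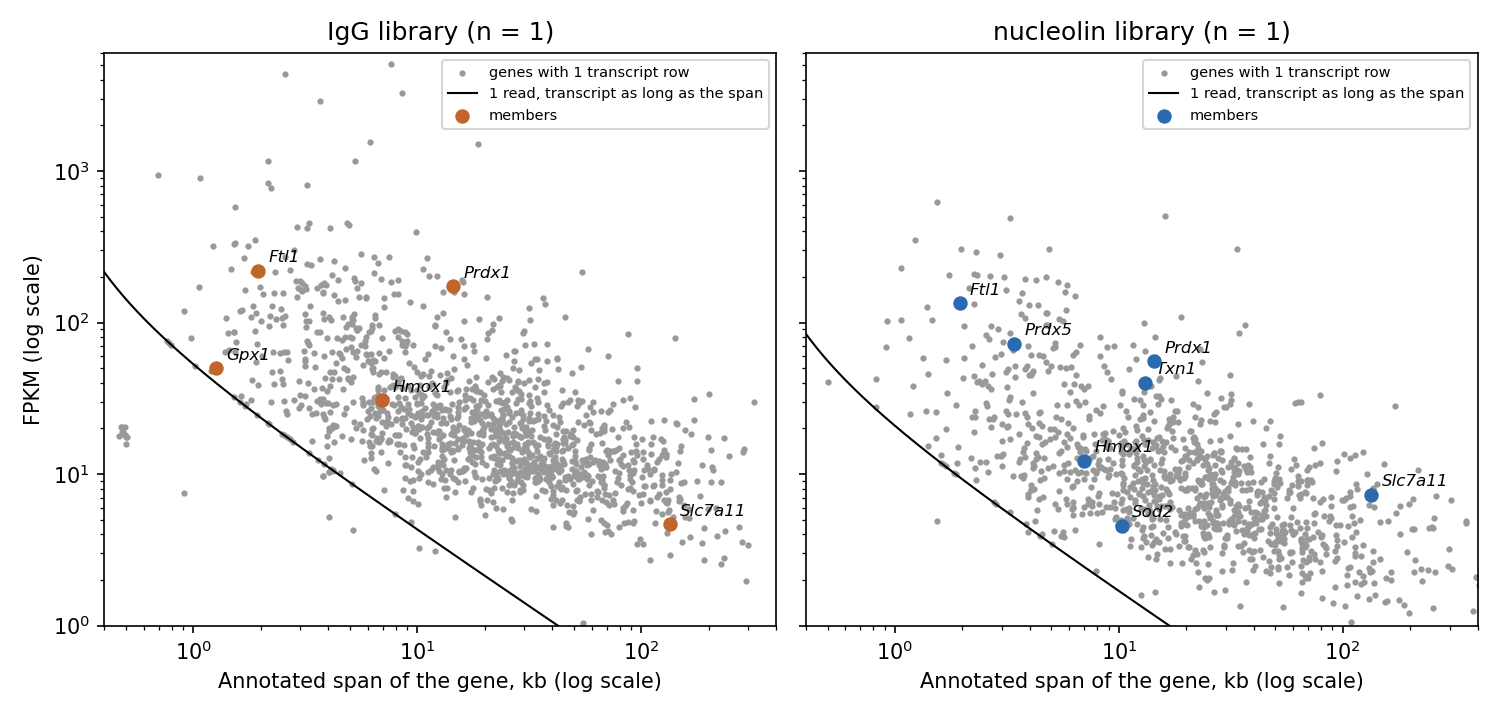
FPKM of each gene with 1 transcript row against the span of the gene in kilobases, both on log scales, for the IgG library (left) and the nucleolin library (right). The black line is the value that 1 read gives to a transcript as long as the span; Gpx1 in the IgG library lies at 1.26 reads on this measure and Sod2 in the nucleolin library at 2.78, so both lie close to the line, and Gpx4, which has 3 rows, is not drawn.

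A transcript cannot be longer than the span of its gene, so the span caps the number of reads behind a value. The cap is reached only by a transcript close to the whole span in length, introns included, and a shorter transcript means fewer reads. The cap assumes whole reads. Genes that share reads with near-identical copies can fall below 1 read. Even at full span, 22 of 1403 IgG genes and 5 of 1165 nucleolin genes fell below 1 read. Whether these genes share reads was not tested. A span shorter than the bases taken off the length cannot be judged in this way. Such spans are those of Mir142b (115 bases, 10684 FPKM with IgG) and Mir6236 (123 bases, 232751 FPKM with the nucleolin antibody). The counts may include these genes. Ferritin and several of the other members have processed pseudogenes, and how shared reads were assigned is not given in the sources used here.

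Of the 10 members, 9 reached 1 FPKM in at least 1 library and were compared, and only Fth1 did not. Of these 9, 3 had at least 2-fold more FPKM with the nucleolin antibody (Prdx5, Txn1 and Sod2), against 37.8% of all 3194 genes compared. A further 4 were at least 2-fold lower (Prdx1, Hmox1, Gpx1 and Gpx4), against 56.7% of all genes, and Ftl1 and Slc7a11 were less than 2-fold apart. These folds are on the scale of log2((nucleolin FPKM + 1) / (IgG FPKM + 1)), which understates the difference of low genes. The members' shares, 33.3% higher and 44.4% lower, are small counts near those of all genes. The median log2 ratio of the members was -0.71, against -1.27 over all genes compared, and it turned to 0.63 when 1 read was set equal in both libraries, a change that moves the median of all genes by 1.26 to -0.01. On that scale Slc7a11 joined the higher members, giving 4 (all genes 40.5%), and Prdx1 and Hmox1 left the lower ones, leaving 2 (all genes 46.9%). Measured in both libraries were 4 of the 9 compared members (44.4%), against 16.8% of all genes compared. None of these 4 was 2-fold higher (3.72% of the 538 genes in both) and 2 were 2-fold lower (63.6% of them). The FPKM of the 10 members summed to 542 with IgG and to 326 with the nucleolin antibody.

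**Figure D2:**
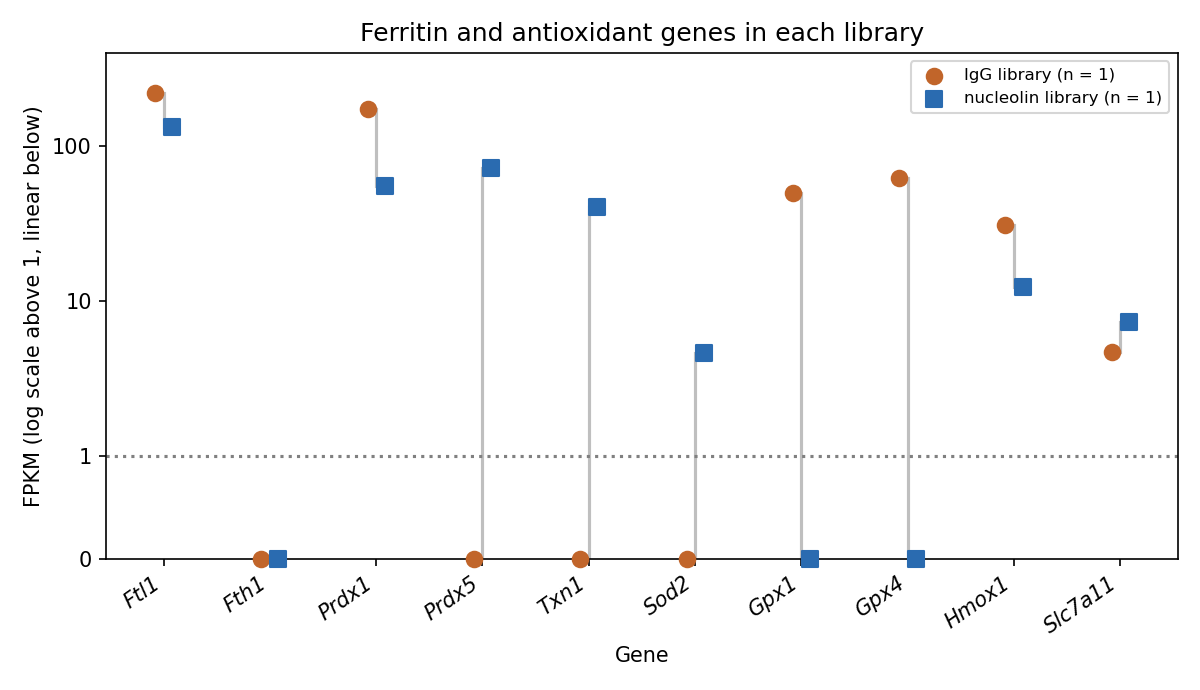
FPKM of the 10 members in the IgG library (circles) and the nucleolin library (squares), on an axis that is logarithmic above 1 FPKM and linear below; the dotted line marks 1 FPKM. Prdx5, Txn1 and Sod2 stand at 0 in the IgG library, Gpx1 and Gpx4 at 0 in the nucleolin library, and Fth1 close to 0 in both.

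Ferritin light chain had the highest FPKM in both libraries among the 9 members compared, which leave out Fth1. Ftl1 was at 220.2 FPKM with IgG and 133.9 FPKM with the nucleolin antibody. It ranked 54th of the listed genes in the IgG library and 35th in the nucleolin library, and it held 40.6% and 41.1% of the members' summed FPKM. The IgG value was the higher by 1.64 times in FPKM, and the log2 ratio of -0.71 became 0.63 with 1 read set equal and 0.55 when centred on all genes. The smallest whole reads with this ratio were 2 IgG and 3 nucleolin reads, and the span of 1943 bases allows no more than 9 and 14. The exact (Clopper-Pearson) 95% interval of the nucleolin-to-IgG FPKM ratio ran from 0.0676 to 7.06 for the former and from 0.247 to 1.60 for the latter. Such intervals cover counting error only. Both include 1 and both include 0.393, the ratio of equal reads, so no difference in Ftl1 was detectable at this depth. Ftl1 lies on chromosome 7 from 45457944 to 45459886 on mm10, the assembly also named GRCm38.

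Ferritin heavy chain could not be read from the table in the same way. Fth1 was listed at 0.00102 FPKM with IgG and 0.000227 FPKM with the nucleolin antibody, far below the worth of 1 read in either. These values belong to a single row, that of the non-coding transcript NR_073181. The coding transcript NM_010239, the other of 2 RefSeq transcripts of the gene, was not analysed here. The near-zero values therefore do not show the level of the ferritin heavy chain messenger RNA, and the light and heavy chains were not compared. Fth1 lies on chromosome 19 from 9980600 to 9985111.

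Haem oxygenase, the source of iron from haem, lay at the ratio of equal reads. Hmox1 was at 30.8 FPKM with IgG and 12.2 FPKM with the nucleolin antibody. The nucleolin-to-IgG FPKM ratio of 0.398 stands beside 0.393 for equal reads, most simply 1 read in each library. The log2 ratio of -1.26 turned to 0.016 with 1 read set equal and to 0.0045 when centred on all genes. At 1 read the IgG value implies a transcript of 1.58 kb and the nucleolin value one of 1.56 kb, within the span of 6976 bases, which allows no more than 4 reads in each. Among the 538 genes compared that were measured in both libraries, 193 others had a log2 ratio within 0.1 of that of Hmox1. The 95% interval of the FPKM ratio was 0.00501 to 30.9 at 1 read each and 0.0732 to 2.11 at 4.

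Peroxiredoxin 1 and thioredoxin 1 are partners in the same reaction, since thioredoxin returns oxidised peroxiredoxin to its working form. Prdx1 was at 173.9 FPKM with IgG and 55.5 FPKM with the nucleolin antibody, 3.13 times higher in the former. Its log2 ratio of -1.63 moved to -0.30 with 1 read set equal. No pair of up to 8 reads matched, and 5 IgG and 4 nucleolin reads were the smallest pair that did. The 95% interval of the FPKM ratio ran from 0.0624 to 1.46 for that pair, and from 0.212 to 0.476 for 58 and 47 reads, the most its span of 14402 bases allows. The second interval, which needs a transcript about as long as the span, lies below 1 and includes the 0.393 of equal reads. Txn1 was listed at 0 in the IgG library and at 40.2 FPKM in the nucleolin library, where 91.0% of the listed genes were lower. Its log2 ratio of 5.36 rests on 1 to 31 nucleolin reads. A count of 31 reads needs a transcript about as long as the span of 13039 bases. There a count of 0 in the IgG library allows up to 9.89 FPKM, and the interval of the ratio lies above 3.11. At 1 read, which implies a transcript of 0.616 kb, the limit is 307 FPKM and the interval reaches down to 0.0101. The length of the transcript, which would decide between these, was not used here.

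Peroxiredoxin 5, found in mitochondria, peroxisomes and the cytosol, had the highest ratio of the members. Prdx5 was at 72.4 FPKM with the nucleolin antibody and 0 with IgG, a log2 ratio of 6.20. It ranked 73rd in the nucleolin library and its ratio was above that of 99.5% of the genes compared. The span of 3410 bases allows 1 to 13 nucleolin reads. With 13 reads, the 95% interval of the nucleolin-to-IgG ratio lies above 1.20 and a 0 in the IgG library allows up to 42.5 FPKM. With 1 read, which implies a transcript of 0.433 kb, the interval lies above 0.0101. Genes listed in the nucleolin library only made up 37.1% of all genes compared, against Prdx5, Txn1 and Sod2 of the 9 members. The gene lies on chromosome 19 from 6906697 to 6910106 and overlaps Trmt112 by 409 bases. Trmt112 was at 0 in both libraries, and whether counting used strand is not given in the sources used here.

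Mitochondrial superoxide dismutase, an enzyme whose gene is strongly induced by LPS through NF-kappa B, was near the limit of what these libraries can show. Sod2 was at 4.57 FPKM with the nucleolin antibody and 0 with IgG, a log2 ratio of 2.48. The span of 10281 bases allows only 1 or 2 nucleolin reads. At 1 read a 0 in the IgG library allows up to 34.9 FPKM, and at 2 reads up to 17.4 FPKM, both above the nucleolin value. The ratio's interval began at 0.0101 and 0.0739, so a difference between the libraries was not detectable. With a pseudocount of 10, Sod2 was no longer 2-fold apart, with a log2 ratio of 0.54.

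The glutathione peroxidases Gpx1 and Gpx4 were listed in the IgG library only, as were 46.0% of all genes compared. Gpx1, the cytosolic enzyme that reduces hydrogen peroxide, was at 50.0 FPKM with IgG and 0 with the nucleolin antibody. Its span of 1263 bases allows 1 read and no more. This FPKM value, higher than that of 82.8% of the listed IgG genes, thus stands for 1 fragment. A count of 0 in the nucleolin library allows up to 59.0 FPKM. The log2 ratio of -5.67 is therefore not a measured fold, and the interval of the ratio reaches up to 15.3. Gpx4, which reduces lipid peroxides in membranes and guards cells from ferroptosis, was at 62.5 FPKM with IgG and 0 with the nucleolin antibody. Nearly all of this, 62.4 FPKM, was in the row of the non-coding transcript NR_110342, and the coding rows NM_008162 and NM_001037741 held 0.0535 and 0.000656 FPKM. The span of 9274 bases allows up to 13 reads. With 13 IgG reads the interval of the nucleolin-to-IgG ratio lies below 0.129. With 1 read, which implies a transcript of 0.879 kb, the interval reaches 15.3.

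**Figure D3:**
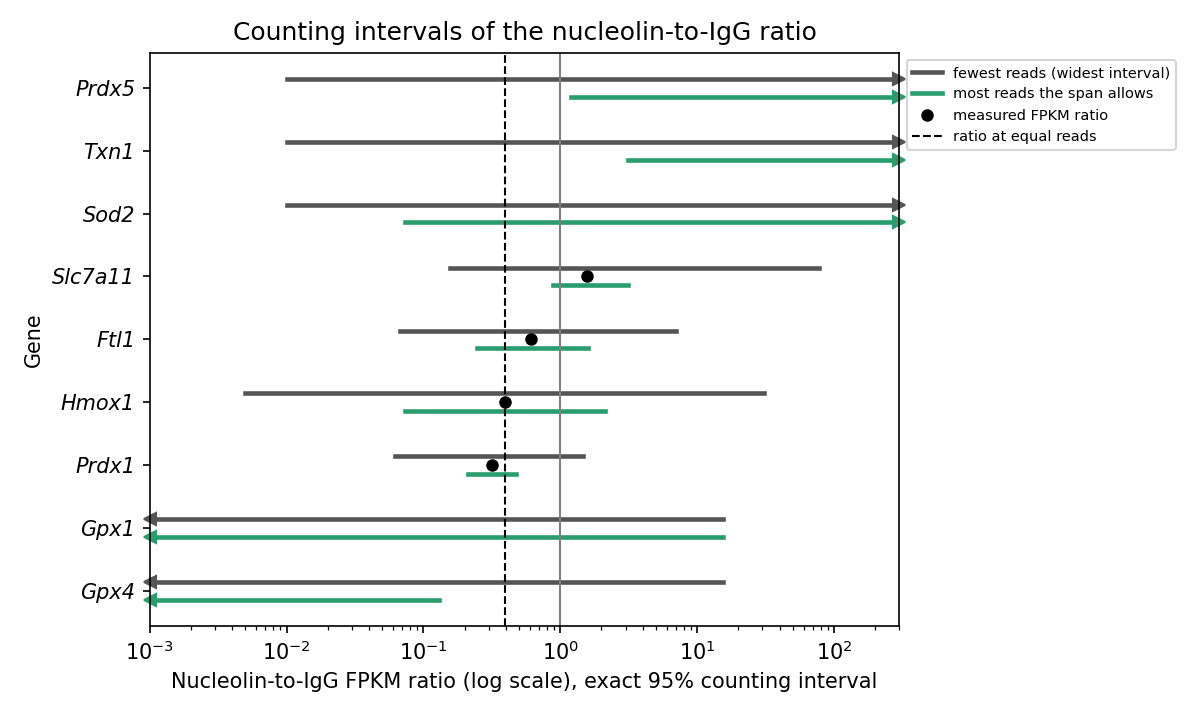
Nucleolin-to-IgG FPKM ratio of the 9 compared members (black points, for the 4 members in both libraries) with exact 95% counting intervals, on a log axis; grey bars use the fewest reads and green bars the most reads that the gene span allows, and arrowheads mark intervals that run on. The green bars of Prdx5 and Txn1 lie above a ratio of 1 and those of Gpx4 and Prdx1 below it. Their read numbers are reached only by a transcript close to the span in length, introns included. Every grey bar spans both 1 and the dashed line at 0.393, the ratio of equal reads.

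The cystine transporter, which limits glutathione synthesis, was the only member in both libraries that was higher in the nucleolin library as deposited. Slc7a11 was at 4.68 FPKM with IgG and 7.30 FPKM with the nucleolin antibody, 1.56 times higher in the latter. Its log2 ratio of 0.55 became 1.78 with 1 read set equal. The ratio is that of 1 IgG to 4 nucleolin reads, and 1 IgG read implies a transcript of 9.23 kb. The 95% interval of the FPKM ratio ran from 0.156 to 77.5 for that pair. For 14 and 57 reads, the largest pair the span of 134152 bases allows, it ran from 0.881 to 3.11. Both intervals include 1. The first also includes the 0.393 of equal reads. The second lies above 0.393 but needs a transcript close to the whole span in length, introns included. Only 5 other genes in both libraries had a log2 ratio within 0.1 of that of Slc7a11. By FPKM it stood low in the IgG library, above 2.34% of the listed genes, where 1 read on a transcript of that length is worth few FPKM.

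**Figure D4:**
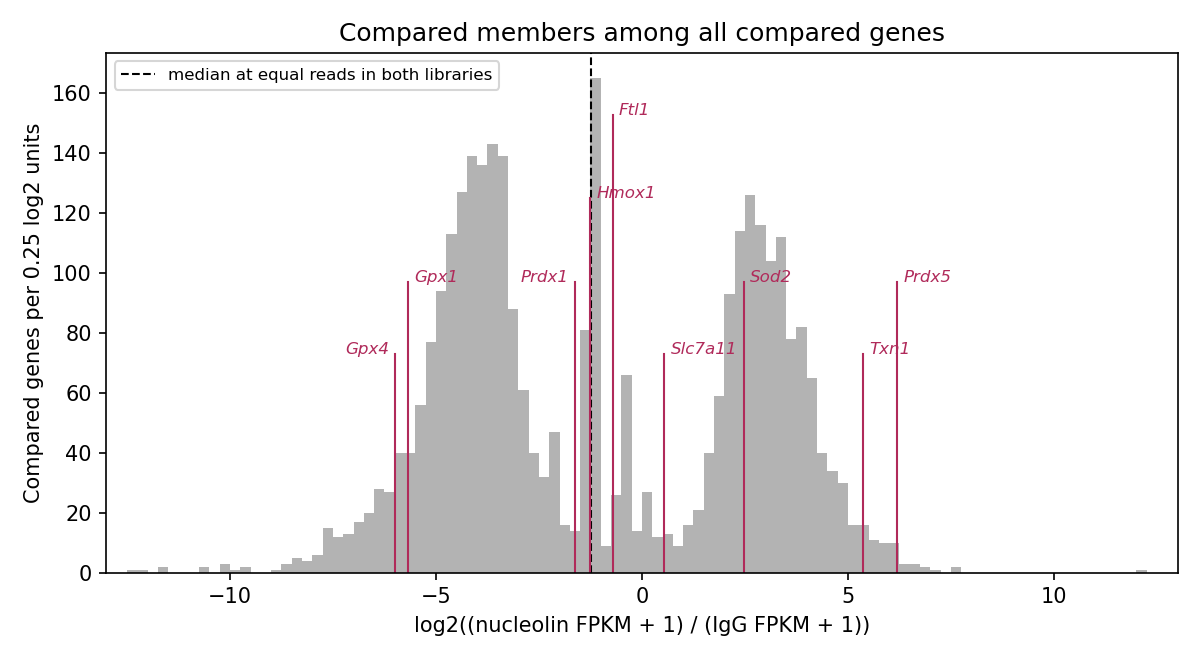
Histogram of log2((nucleolin FPKM + 1) / (IgG FPKM + 1)) over the 3194 genes compared, in steps of 0.25, with the 9 compared members as vertical lines; line heights only separate the labels. The left and right humps are mostly genes listed in 1 library, where Gpx1, Gpx4, Sod2, Txn1 and Prdx5 lie, and Hmox1 stands on the narrow peak at the median of equal reads (-1.23).

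**Figure D5:**
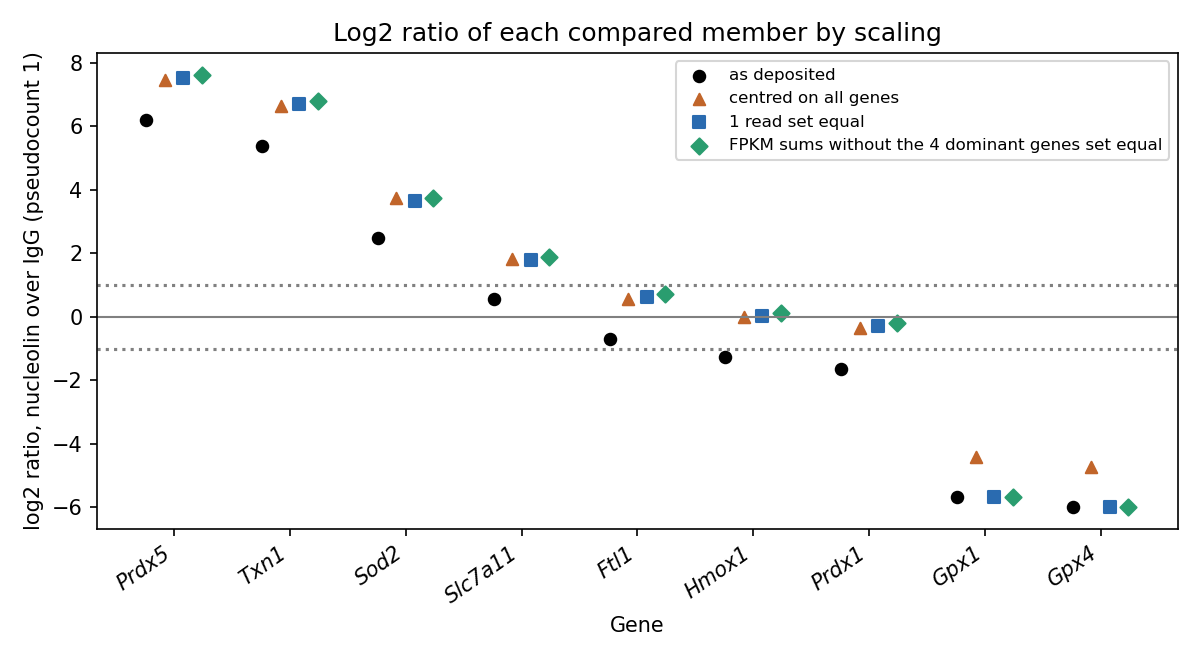
Log2 ratio of the 9 compared members as deposited and under 3 scalings of the nucleolin library against the IgG library; dotted lines mark 2-fold. Hmox1 moves from -1.26 to between 0.0045 and 0.11, Prdx1 from -1.63 to between -0.36 and -0.21, Ftl1 changes sign, and Slc7a11 passes 2-fold.

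A sequence shared by NRF2 target genes was looked for because the members are often described as 1 programme, a feature the choice by name did not use. The RefSeq promoter windows of GRCm38.p6 matched 9 members, all but Hmox1, and the 250 bases before each start were searched on both strands. The antioxidant response element, searched as TGACNNNGC, was found upstream of 1 of the 9 members, Prdx1, against 11.5% of all 27025 genes with a window. An AP-1 site, TGACTCA, was also found for Prdx1 alone, at 2 places, against 5.16% of all genes. One of the places overlaps the antioxidant response element. The windows are shown because Prdx1 is the member that held these letters, with the motif in capitals, and both are on the plus strand, that of the gene. A match of letters does not show that a factor binds there, and these libraries of precipitated RNA do not bear on it. Bases further upstream were not searched, so the lack of a match does not show that a gene lacks the element.
Prdx1 antioxidant response element, chr4:116685446-116685494, 133 bases upstream, read as its reverse complement: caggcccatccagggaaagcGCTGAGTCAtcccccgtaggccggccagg
Prdx1 AP-1 site, chr4:116685349-116685388, 237 bases upstream: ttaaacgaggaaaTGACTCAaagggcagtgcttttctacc

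Other genes of the same pathways were taken from 6 lists, which were drawn up with earlier results of these data known. Of their 102 genes 45 were compared, of which 13 were at least 2-fold higher (37.8% of all genes compared) and 28 at least 2-fold lower (56.7% of all). Their median log2 ratio of -1.23, beside -1.27 over all genes, became -0.01 with 1 read set equal, and the counts became 17 higher and 20 lower, against 40.5% and 46.9% of all genes on that scale.

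Among the other peroxiredoxins, thioredoxins and glutaredoxins 1 of the 10 genes compared was in both libraries, against 16.8% of all genes compared. The others fell to 1 library or the other. With the nucleolin antibody 5 of the 10 compared were higher and 5 lower, against 37.8% and 56.7% of all genes. Prdx2, a cytosolic peroxiredoxin, was at 114 FPKM, mitochondrial thioredoxin Txn2 at 78.3 FPKM and Prdx6 at 41.9 FPKM, all with IgG and 0 with the nucleolin antibody. The 5 higher genes, Prdx3, Prdx4, Glrx, Txnl1 and Srxn1, had values of 6.37 to 22.2 FPKM with the nucleolin antibody and 0 with IgG. Txnrd1, the thioredoxin reductase that recharges Txn1, was the 1 gene in both, at 13.6 and 5.34 FPKM, with a log2 ratio of -1.20 that became 0.00 with 1 read set equal. Of 8 further superoxide dismutase, catalase and glutathione peroxidase genes only Sod1, the cytosolic enzyme, was compared, at 285 FPKM with IgG and 0 with the nucleolin antibody. Sod1 and Sod2 thus stood in different libraries, Sod2 on at most 2 reads. The numbers of reads behind Sod1 and the other pathway genes are not given here, and the low depth limits their values too.

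Of the genes of glutathione synthesis and transfer 12 were compared. With the nucleolin antibody 2 were higher (Gclc and Gsr, against 37.8% of all genes) and 10 lower (56.7% of all), 9 of them at 0 (46.0% of all). With 1 read set equal 2 were higher and 9 lower, against 40.5% and 46.9% of all genes. Gsto1, an omega-class glutathione transferase, was at 397 FPKM, and the microsomal transferases Mgst2 and Mgst3 at 109 and 97.7 FPKM, all in the IgG library only. Slc3a2, the partner chain of Slc7a11, was at 17.8 FPKM with IgG and 7.02 FPKM with the nucleolin antibody, with a log2 ratio of -1.23 (0.00 with 1 read set equal); it was named after its values were seen. The gastric and epithelial markers stood beside these genes with 12 of 13 listed in the IgG library only, and their part in the list's values was not tested.

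Iron and haem handling genes were the pathway list with the highest count in both libraries, though not the highest share. The count was 5 of 10 compared, against 16.8% of all genes compared. As deposited 2 (Tfrc and Slc11a2) were higher with the nucleolin antibody and 6 lower, against 37.8% and 56.7% of all genes. With 1 read set equal 4 were higher and 3 lower, against 40.5% and 46.9%. Pcbp1, a chaperone that delivers iron to ferritin, was at 28.8 FPKM with IgG and 34.3 FPKM with the nucleolin antibody, a log2 ratio of 0.25. Slc11a1, a metal transporter of the macrophage phagosome, was at 20.1 and 23.8 FPKM, a log2 ratio of 0.23. With 1 read set equal both passed 2-fold, at 1.57 and 1.54. Lcn2, a protein that binds bacterial iron carriers and is also secreted by epithelia, was at 65.0 FPKM with IgG and 0 with the nucleolin antibody.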

How the data were processed

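RNA-seq of immunoprecipitated RNA was analysed from 1 IgG and 1 nucleolin library. The nucleolin library was identified by its title, nucleoplasmic RNA, through the series' design text and the column name NCL. The deposited values are FPKM per transcript row, made by the authors, per the file headers. FastQC 0.10.0, Trimmomatic 0.32 and build mm10 are named in the submitters' processing notes; for the aligner and the quantification tool the entry is "not given in the sources used here". Rows without a symbol (56 of 33529) were left out. Genes at 1 FPKM or more in at least 1 library were compared, with a pseudocount of 1; values below 0.1 FPKM count as not listed. The computation used pandas 2.3.3, scipy 1.17.1 and numpy 2.4.6 under Python 3.11.15.

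The ratio of the worth of 1 read is the most frequent FPKM ratio of 246 low genes (157 within 0.05 on the log2 scale). The worth itself is the densest window, 0.02 wide on the log2 scale, of FPKM times gene span less an offset, with spans from a RefSeq gene table of GRCm38.p6. This step, the caps from gene spans and a limit of 12 reads for Prdx1 were chosen after seeing the data. The zero limit is 3 reads. The steps for the worth of 1 read, the read pairs and the 2-fold calls were tested on simulated data. The simulated reads were whole and not shared between genes. The span caps, the zero limits and the coverage of the intervals were not tested in this way.

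Named genes are all members and, per pathway list, the 3 with the highest summed FPKM; exceptions are marked, and those in counts of 5 or fewer are named for that reason. Members and lists were chosen with earlier results of these data known. The 9 alternatives concern pseudocount, filter, scaling and rows.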

Additional observations from a re-analysis of the deposited data

How the results depend on the processing

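The count of members 2-fold or more lower with the nucleolin antibody fell from 4 to 2 when centred on all genes, with 1 read set equal, and with the FPKM sums without Rn45s, Lars2, Mir6236 and Mir142b set equal. The log2 ratio of Hmox1 turned from -1.26 to 0.0045, 0.016 and 0.11 under these settings in that order. The members' median turned from -0.71 to 0.55, 0.63 and 0.72. It was -0.68 with a pseudocount of 10, -0.36 with no filter (Fth1 enters) and -1.26 at a minimum of 10 FPKM (Sod2 and Slc7a11 leave). The count of higher members ranged from 2 to 4 around the 3 reported. Of 79 values of single members under the alternatives, only these 3 of Hmox1 changed the sign of a ratio that was 2-fold as deposited. They lay near no difference. Prdx1 also fell below 2-fold under the same settings, at -0.36, -0.30 and -0.21 in that order. With a pseudocount of 10, Hmox1 (-0.87) and Sod2 (0.54) did so too. All 79 values lay within the member's widest counting interval, which does not show that they are stable. Those intervals are of the FPKM ratio as deposited. For Prdx5, Txn1, Sod2, Gpx1 and Gpx4 they have a limit on 1 side only, so values on the other side could not fall outside. Taking the highest row or the mean of rows left both member counts at 3 and 4; the mean of rows gave 1168 higher and 1776 lower over all genes. The share of higher genes among all genes 2-fold apart was 40.0% as deposited and 46.3% with 1 read set equal. With a pseudocount of 10 it was 25.9% and at a minimum of 10 FPKM 23.7%. Over all genes, a pseudocount of 10 left 439 higher and 1259 lower, and a minimum of 10 FPKM 448 higher and 1439 lower, against 1206 and 1812. Leaving out a replicate was not possible with 1 library per group. No paired analysis was possible because each group has 1 library. Depth limits every value: whole-read numbers of 1 to 5 are enough to give the ratio of each member measured in both libraries.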

Other observations

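Enzymes that make superoxide and nitric oxide, and the NRF2 pathway itself, stand beside the defence genes and were not described above. Of 8 genes for superoxide, nitric oxide and itaconate production 3 were compared. All 3 were in both libraries, as were 16.8% of all genes compared. Cybb, the catalytic chain of the phagocyte oxidase, was at 9.29 FPKM with IgG and 3.64 FPKM with the nucleolin antibody. Rac2, a small GTPase that activates the oxidase, was at 14.9 and 5.86 FPKM. Their log2 ratios of -1.15 and -1.21 became -0.01 and 0.00 with 1 read set equal. Acod1 (Irg1 in the table), which makes itaconate, was at 70.8 FPKM with IgG and 69.8 FPKM with the nucleolin antibody, with a log2 ratio of -0.02 and one of 1.31 with 1 read set equal. Nos2, the inducible nitric oxide synthase, did not reach 1 FPKM in either library.

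Of 20 NRF2 pathway and other antioxidant genes 9 were compared, and with the nucleolin antibody 4 were higher (Park7, Taldo1, Maff and Abcc1) and 4 lower (Msrb1, Mafk, Me1 and Tkt), against 37.8% and 56.7% of all genes. With 1 read set equal 5 were higher and 3 lower, against 40.5% and 46.9%. Sqstm1, an autophagy receptor that binds the NRF2 inhibitor Keap1, was at 49.3 and 45.7 FPKM. Its log2 ratio of -0.11 turned to 1.22 with 1 read set equal. Tkt, the transketolase of the pentose phosphate pathway, was at 41.9 and 16.4 FPKM, with a log2 ratio of -1.30 and of 0.00 with 1 read set equal. Msrb1, a selenoprotein that repairs oxidised methionine, was at 61.8 FPKM with IgG and 0 with the nucleolin antibody, as 46.0% of all genes compared were listed in the IgG library only. Nfe2l2, which encodes NRF2, and Keap1 did not reach 1 FPKM in either library.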
